A study of Homo sapiens with 6 samples.

Results

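The genes described are the collagen chains and the proteins that hydroxylate, fold, trim and cross-link them, together with FN1, FBN1 and SPARC. They were chosen by symbol alone, as every row of the table whose name is that of a collagen chain, a prolyl or lysyl hydroxylase, a lysyl oxidase, the chaperone gene SERPINH1, the proteinase gene BMP1, a PCOLCE gene or one of those 3 matrix genes. There were 51 of them among the 13117 genes of the table, 30 of them collagen chains. They were measured by RNA-seq in SNU449, an established human hepatocellular carcinoma line. The line carried pInducer20-FOXO1AAA, a doxycycline-inducible vector for a mutant FOXO1 transcription factor that the kinase AKT cannot phosphorylate at its usual sites. The labels give the genotype as WT in all samples. The group Cont was 3 libraries of these cells without doxycycline, and the group Dox was 3 libraries of the same cells after 48 h with 2 µM doxycycline hydrochloride. Both groups carried the construct. No library had doxycycline without it, so effects of the drug and of the mutant FOXO1 cannot be told apart. The labels do not say whether the line is 1 clone, nor whether replicate libraries are separate cultures. The p-values therefore cover only the spread among these 6 libraries, part or all of which may be technical.

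Collagens are trimers of chains built from glycine-led repeats. In the endoplasmic reticulum, prolyl 4-hydroxylases, prolyl 3-hydroxylases and lysyl hydroxylases modify the chains, and the chaperone HSP47 binds the folded triple helix. After secretion, proteinases such as BMP1 trim the ends of fibrillar procollagens, and lysyl oxidases start the cross-linking of the assembled fibrils. In liver, hepatic stellate cells and fibroblasts make most fibrillar collagen, and type IV collagen forms the network of basement membranes.

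Values are FPKM (fragments per kilobase of transcript, scaled to the mapped reads of the library), obtained by undoing the logarithm of the deposited table. Where 2 runs of 3 values stand side by side, the first gives Cont replicates 1 to 3 and the second Dox replicates 1 to 3. Log2 changes are Dox minus Cont on log2(FPKM + 1), a scale that shrinks the change of low genes, and a gene was called where its limma adjusted p was under 0.05. A gene was tested where 3 or more libraries reached FPKM 1, which left 11526 genes. FOXO1 was at 0.741, 0.776 and 0.889 FPKM in Cont and at 2.87, 3.50 and 2.01 in Dox, and the table does not show whether construct reads count towards it. Total depth was not given, and the steps of the lowest values put the libraries at 0.790 to 1.31 times their mean depth. Cont replicates 1 and 2 differed from each other by an SD of 0.121 in log2 over 7475 genes, and Cont replicate 3 differed from them by 0.213 and 0.205. In Dox the SD was 0.152 between replicates 1 and 2, and 0.213 and 0.208 against replicate 3. Genes of the mitochondrial genome made up 3.73% ± 0.855 of all FPKM in the Cont libraries and 14.1% ± 0.80 in the Dox libraries (SD, n = 3). A larger share of such genes lowers the FPKM of all other genes in Dox. The median log2 change of all tested genes was -0.06, and 46.7% of the called genes were higher. In TPM (transcript abundance scaled to a fixed sum) computed without the mitochondrial genes, called nuclear TPM below, the median was 0.22 and 60.2% were higher, and members whose call this touches are named with both values. The part of the mitochondrial share in the members' changes was not tested beyond this rescaling.

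Few markers of liver cell types were in the table, and those absent from it are not analysed here. Of 10 hepatocyte markers listed, 2 were in the table: ALB, the albumin gene, was at 0.571, 0.298 and 0.0941 FPKM in Cont and 1.71, 1.004 and 0.850 in Dox, and AMBP at 8.53, 10.6 and 6.60 and 3.14, 3.48 and 2.27. The summed level of these hepatocyte markers was 6.70 to 10.8 in Cont and 3.12 to 4.85 in Dox. Most of that sum was AMBP, which fell (limma log2 change -1.26, adjusted p = 5.8e-05). ALB went the other way: it missed the filter in FPKM and was called higher in nuclear TPM (log2 change 1.13, limma adjusted p = 0.00163). In nuclear TPM ALB passed the filter only through Dox. Of 10 markers of stellate cells and fibroblasts, 5 were in the table, with a summed level of 983 to 1348 in Cont and 1316 to 1666 in Dox. Nearly all of that sum was RGS5 (1329.5, 1342 and 977 in Cont, 1661, 1559 and 1309.6 in Dox, limma adjusted p = 0.051), which was called higher in nuclear TPM (log2 change 0.60, limma adjusted p = 0.00131). PDGFRA, a defining receptor gene of those cells, was at its lowest value, which stands for 0 reads, in all 3 Cont libraries, and at 1.21, 0.419 and 0.938 in Dox. ACTA2 rose (log2 change 0.49), LRAT fell (-0.65) and FAP did not pass the test. Of 7 endothelial markers PECAM1 and CDH5 summed to 0.306 to 0.401 in Cont and 0.528 to 0.975 in Dox, and of 7 immune markers only CD14 was in the table, at 1.73 to 2.35 and 2.25 to 2.38. The part of these genes in the results below was not tested. In bulk RNA a lower level per cell and fewer cells that express a gene cannot be told apart.

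Collagen genes moved in both directions. COL3A1, COL5A2, COL28A1, COL11A1, COL24A1, PLOD2 and PCOLCE2 were among the rises, and COL13A1, COL6A3, COL1A2, COL1A1 and LOXL2 among the falls. Of the 51 members, 38 passed the filter on low values, of which 19 rose, 16 fell and 3 did not pass the test at an adjusted p under 0.05 in limma. Over all tested genes 80.4% were called, 37.6% higher and 42.8% lower, so a count of called members of this size is near the background. A log2 change of at least 1 was reached by 13 of the rises and 8 of the falls, against 16.3% higher and 16.6% lower over all tested genes. The members' median log2 change was 0.14, against -0.06 over all tested genes. In nuclear TPM it was 0.52 against 0.22, and of 41 members tested 22 rose and 13 fell. Of all 12078 genes tested on that scale, 5837 rose and 3855 fell. On the FPKM scale the positive median rested on 5 members that passed the filter only through Dox. Without Dox replicate 1, 2 or 3 these drop out, and the median of the 33 members left was -0.13, -0.16 and -0.15, against -0.12 over all genes tested. With the filter at FPKM 5 it was -0.15 against -0.16. In nuclear TPM the same 5 members, and COL4A3 and FBN1, which passed there only through Dox, were all among the rises. The median without them was not computed on that scale. In 36 of the 38 the Dox and Cont libraries did not overlap, against 82.1% of all tested genes. Those 5 members, all among the 19 rises, were COL9A2, COL11A1, COL4A4, COL24A1 and COL28A1. They had FPKM of at least 1 in Dox libraries only, so they could pass only if they were high there. Of the 33 members with FPKM of at least 1 in both groups, 14 rose and 16 fell. Without Dox replicate 1 the count of rises was 12, because those 5 genes then miss the filter of 3 libraries and the calls of COL6A1 and PCOLCE end.

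**Figure D1:**
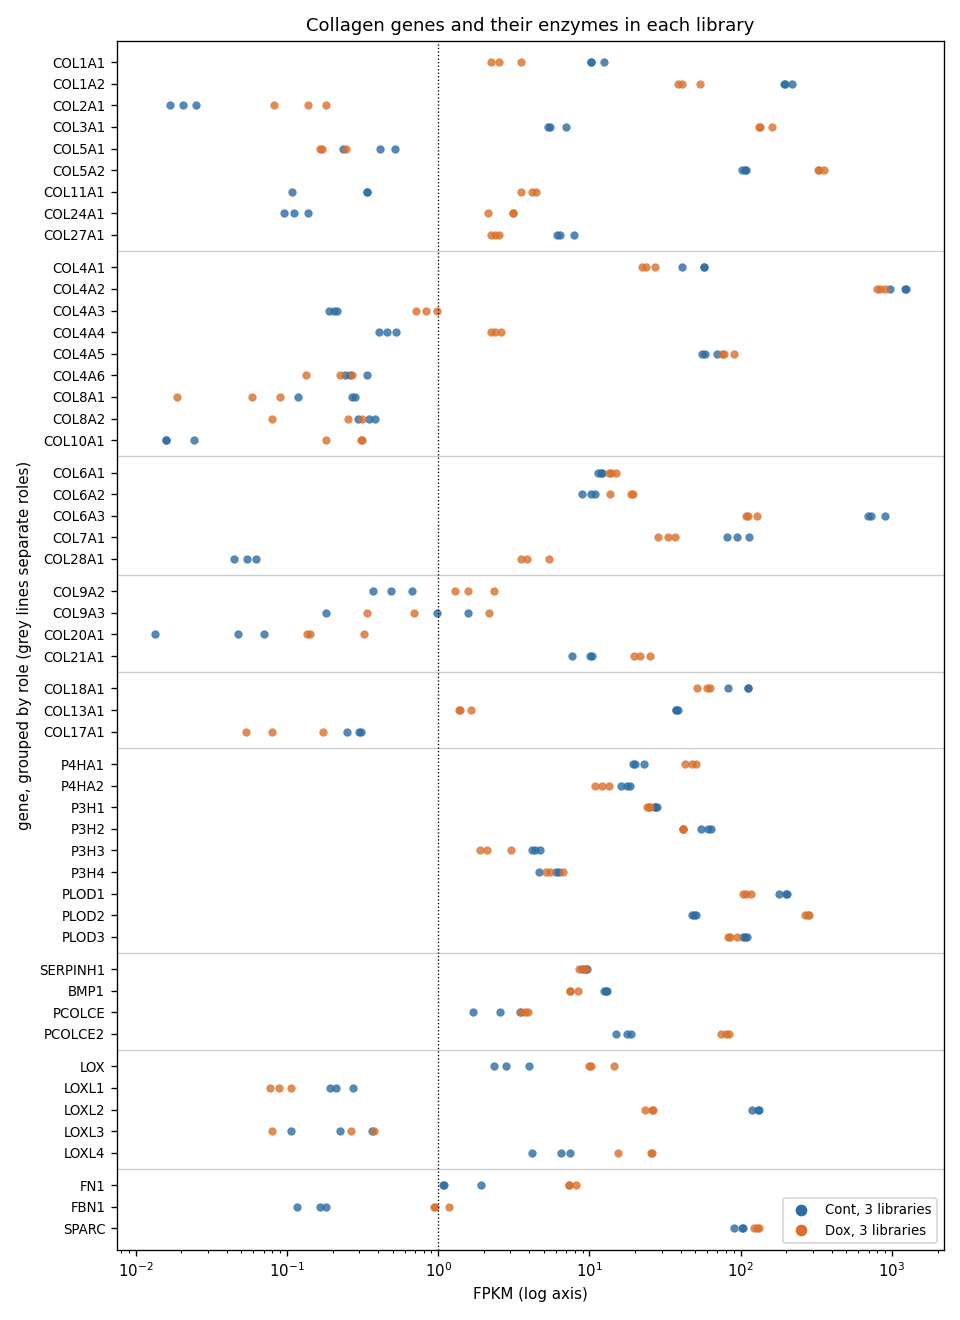
FPKM of all 51 members on a log axis, 1 point per library, with Cont in blue and Dox in orange and genes grouped by role, grey lines separating the roles. The dotted line marks FPKM 1, the level of the filter. COL4A2 is the highest collagen chain in both groups, and the Cont and Dox points of COL3A1, COL13A1, COL28A1 and PLOD2 lie far apart.

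Summed over the 30 chains, collagen mRNA was at 2634 ± 53.3 FPKM in Cont and 1755 ± 42.2 in Dox (SD, n = 3). Values were 2642, 2683 and 2577 in Cont and 1712, 1796 and 1757 in Dox, so the Dox libraries were all lower. The sum was not rescaled to nuclear TPM, and the larger mitochondrial share lowers FPKM in Dox. A single chain, COL4A2, made up 43.4% ± 5.17 in Cont and 47.9% ± 2.31 in Dox (SD, n = 3) of this sum. COL6A3 made up 29.5% ± 4.84 in Cont and 6.63% ± 0.619 in Dox (SD, n = 3), and COL5A2 4.01% ± 0.0381 in Cont and 19.2% ± 0.983 in Dox (SD, n = 3). The next highest chain after COL4A2 was thus COL6A3 in Cont and COL5A2 in Dox.

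Of the 9 fibrillar chains, 7 were tested, of which 4 rose and 3 fell, against 37.6% higher and 42.8% lower over all tested genes. Among the 4, COL11A1 and COL24A1 passed the filter only through Dox. The type I chains fell, the type III chain and the type V chain COL5A2 rose, and the minor chains of types XI and XXIV rose while that of type XXVII fell. COL3A1 (chromosome 2, 188974320 to 189012746, GRCh38), whose product forms type III collagen alone and shares fibrils with type I, was at 5.32, 5.48 and 6.98 FPKM in Cont and 134, 131 and 159.7 in Dox. Every Dox library was far above every Cont library, a 23.9-fold rise (limma log2 change 4.37 with SE 0.11, adjusted p = 1.52e-09). COL5A2 (chromosome 2, 189031896 to 189225312) encodes a chain of type V collagen, which sets the width of fibrils. It was at 107, 108 and 102 in Cont and 325, 331 and 357 in Dox, a 3.20-fold rise (limma log2 change 1.67 with SE 0.065, adjusted p = 1.24e-08). COL3A1 and COL5A2 are neighbours that converge on chromosome 2, with 19149 bases between their gene bounds in GENCODE 29.

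The type I chains went the other way. COL1A1 (chromosome 17, 50183289 to 50201632) was at 10.3, 10.2 and 12.4 FPKM in Cont and 2.51, 2.23 and 3.50 in Dox, 3.99-fold lower (limma log2 change -1.69 with SE 0.14, adjusted p = 1.59e-06). COL1A2 (chromosome 7, 94394561 to 94431232), which encodes the partner chain of the same trimer, was at 192, 195 and 218 and 38.8, 40.7 and 54.05, 4.53-fold lower (limma log2 change -2.17 with SE 0.12, adjusted p = 9.52e-08). For both genes the groups were well apart, and Cont replicate 3 and Dox replicate 3 were the highest of their groups. COL27A1, a minor fibrillar chain of cartilage, also fell, from 6.12, 6.37 and 7.94 to 2.22, 2.36 and 2.52 (limma log2 change -1.21, adjusted p = 4.14e-06).

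Among the minor chains that rose, COL11A1, a chain of the type XI collagen that nucleates cartilage fibrils, was at 0.340, 0.340 and 0.109 FPKM in Cont and 4.43, 3.51 and 4.18 in Dox (limma log2 change 1.998, adjusted p = 2.84e-07). COL24A1, a fibrillar chain described in bone, was at 0.111, 0.0962 and 0.138 and 3.11, 3.12 and 2.12 (limma log2 change 1.75, adjusted p = 1.16e-06). Both were under FPKM 1 in all Cont libraries and above it in all Dox libraries. COL5A1, the usual partner of COL5A2, was at 0.236, 0.411 and 0.518 and 0.165, 0.169 and 0.245, under the filter and with overlapping groups. COL2A1, the cartilage type II chain, reached 0.182 at most.

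The share of each chain in a library's fibrillar collagen mRNA does not change with a factor common to all genes of that library. COL1A2 took 60.7% ± 1.56 in Cont and 8.25% ± 0.882 in Dox (SD, n = 3) of the summed FPKM of the 9 fibrillar chains. COL5A2 took 31.9% ± 2.18 in Cont and 63.1% ± 1.64 in Dox (SD, n = 3), and COL3A1 1.78% ± 0.197 in Cont and 26.4% ± 0.935 in Dox (SD, n = 3). COL1A1 took 3.30% ± 0.234 in Cont and 0.509% ± 0.0849 in Dox (SD, n = 3). The sum itself was 322 to 348 FPKM in Cont and 510.2 to 584 in Dox.

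**Figure D2:**
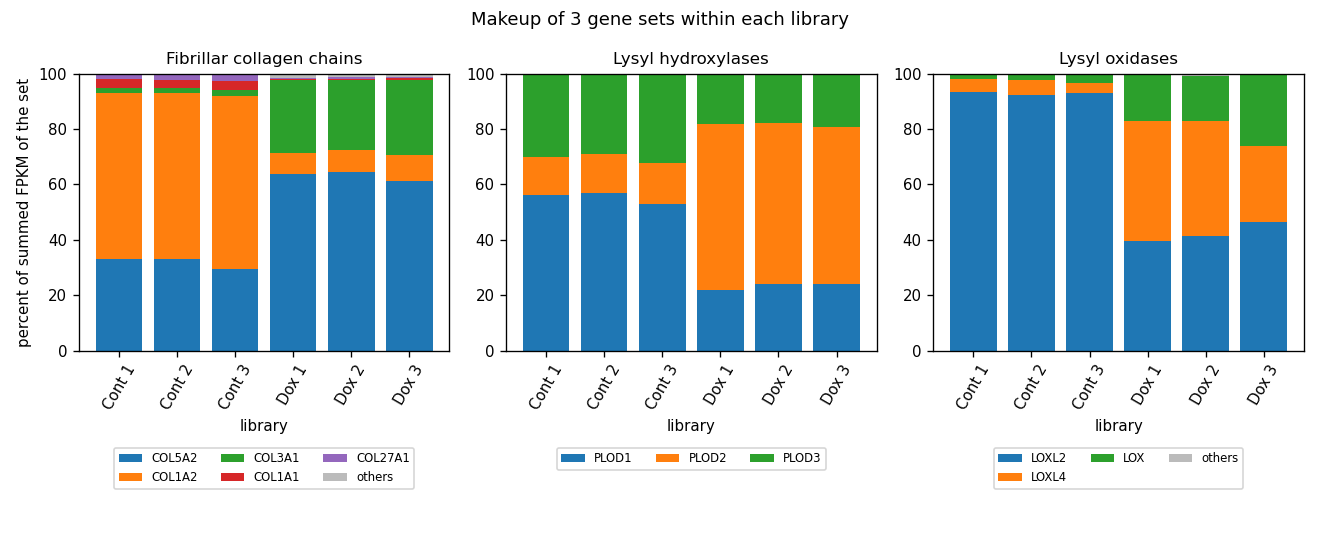
Share of each gene in the summed FPKM of its set, in percent, within each of the 6 libraries, for 9 fibrillar collagen chains, 3 lysyl hydroxylases and 5 lysyl oxidases. Genes under 1% in every library are pooled in grey. COL1A2, PLOD1 and LOXL2 hold the largest shares in the Cont libraries, while COL5A2 and PLOD2 do so in all 3 Dox libraries.

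Type IV chains are encoded in pairs that lie head to head on opposite strands, COL4A1 with COL4A2 on chromosome 13, COL4A3 with COL4A4 on chromosome 2 and COL4A5 with COL4A6 on the X chromosome. The promoter windows are shown because the genes of a pair start close together while their levels did not always move alike. Each sequence is the RefSeq window (GRCh38.p14, plus strand) from 250 bases before to 50 bases after the start of the first named gene, 5′ to 3′, and capitals mark the bases that also lie in the window of its partner. They span chr13:110307034-110307333, chr2:227164374-227164673 and chrX:108439588-108439887.
COL4A2: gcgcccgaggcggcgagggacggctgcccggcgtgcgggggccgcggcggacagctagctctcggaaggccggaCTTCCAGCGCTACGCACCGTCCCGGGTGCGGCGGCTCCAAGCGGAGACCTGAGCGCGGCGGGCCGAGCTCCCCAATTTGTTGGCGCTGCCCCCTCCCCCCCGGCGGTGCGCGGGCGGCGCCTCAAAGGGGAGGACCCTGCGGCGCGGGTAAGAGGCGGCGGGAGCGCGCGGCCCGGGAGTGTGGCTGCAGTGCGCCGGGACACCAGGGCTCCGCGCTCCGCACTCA
COL4A3: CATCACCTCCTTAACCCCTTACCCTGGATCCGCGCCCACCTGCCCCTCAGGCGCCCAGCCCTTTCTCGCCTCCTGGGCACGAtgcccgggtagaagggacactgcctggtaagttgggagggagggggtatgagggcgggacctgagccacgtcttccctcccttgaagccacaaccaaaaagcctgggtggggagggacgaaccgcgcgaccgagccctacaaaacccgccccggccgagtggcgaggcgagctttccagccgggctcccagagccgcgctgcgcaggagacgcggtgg
COL4A5: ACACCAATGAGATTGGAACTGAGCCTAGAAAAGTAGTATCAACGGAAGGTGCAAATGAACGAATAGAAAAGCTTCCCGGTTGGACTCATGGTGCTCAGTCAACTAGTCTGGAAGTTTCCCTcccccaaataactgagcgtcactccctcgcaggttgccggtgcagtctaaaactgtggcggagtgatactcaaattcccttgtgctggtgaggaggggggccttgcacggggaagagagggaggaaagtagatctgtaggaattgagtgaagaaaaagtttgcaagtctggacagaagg
Where a gene had several RefSeq windows, the combination with the largest overlap in its pair was used. The starts of these windows lie 126 bases apart for COL4A1 and COL4A2, 418 for COL4A3 and COL4A4, and 379 for COL4A5 and COL4A6. The windows share 226, 82 and 121 bases. The share of G and C was 77.7% in the first window, 67.7% in the second and 49.3% in the third. The forkhead motif GTAAACA, searched on both strands, was in 0 of the 52 windows that match 39 of the members, and in 3.42% of all 35116 windows of that length. That says only that these letters are not in these windows.

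COL4A1 and COL4A2 encode the chains of the common basement membrane trimer. COL4A2 (chromosome 13, 110305812 to 110513209) was at 1242, 1228 and 966 FPKM in Cont and 827, 896 and 797 in Dox, so the lowest Cont library, replicate 3, stood just above the highest Dox library. Its fall (limma log2 change -0.44 with SE 0.1, adjusted p = 0.00316) depended on scaling: the log2 change was -0.16 in nuclear TPM (limma adjusted p = 0.127) and 0.02 under quantile normalization (limma adjusted p = 0.866). COL4A1 (chromosome 13, 110148963 to 110307233) was at 56.8, 56.9 and 40.6 and 23.5, 22.3 and 27.3, 2.11-fold lower (limma log2 change -1.04 with SE 0.13, adjusted p = 4.59e-05), and its fall was kept in nuclear TPM (-0.77, limma adjusted p = 0.000232).

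The other pairs differed. COL4A4 rose from 0.528, 0.408 and 0.459 FPKM to 2.59, 2.25 and 2.36 (limma log2 change 1.21, adjusted p = 3.14e-06), and COL4A3, under the filter, was at 0.213, 0.190 and 0.206 and 0.836, 0.717 and 0.979, with all Dox libraries above all Cont libraries for both genes. In nuclear TPM COL4A3 passed the filter only through Dox, and rose (limma log2 change 0.99, adjusted p = 0.000146). These chains form a trimer with COL4A5 that is best known from the kidney glomerulus. COL4A5 rose from 58.2, 69.4 and 55.1 to 77.7, 90.4 and 74.9 (limma log2 change 0.41, adjusted p = 0.00423). Its head-to-head partner COL4A6 stayed under FPKM 1 in every library, at 0.261, 0.242 and 0.340 and 0.224, 0.133 and 0.271, with overlapping groups. The short-chain network collagens COL8A1, COL8A2 and COL10A1 were all under the filter. For COL10A1, the type X chain of hypertrophic cartilage, the lowest value was shared by Cont replicates 1 and 2, which allows a count of reads: 0, 0 and 1 in Cont and 48, 35 and 18 in Dox.

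Type VI collagen, which forms beaded microfilaments around cells, is assembled from 3 different chains, and these did not move together. COL6A3 (chromosome 2, 237324003 to 237414375), the longest chain, was at 698, 722 and 903 FPKM in Cont and 109, 111 and 129 in Dox, 6.66-fold lower (limma log2 change -2.72 with SE 0.11, adjusted p = 1.31e-08). COL6A1 (chromosome 21, 45981737 to 46005050) was at 11.9, 12.1 and 11.4 and 15.03, 13.5 and 13.9 (limma log2 change 0.24 with SE 0.078, adjusted p = 0.0152), a small rise whose call ended without Dox replicate 1 (limma adjusted p = 0.0646). COL6A2 (chromosome 21, 46098097 to 46132849) was at 10.9, 10.2 and 8.97 and 18.9, 19.4 and 13.7 (limma log2 change 0.72 with SE 0.13, adjusted p = 0.000561), with Dox replicate 3 nearest to the Cont libraries. COL6A1 and COL6A2 lie on the same strand of chromosome 21, with 93046 bases between them. COL6A3 took 97.2% ± 0.512 in Cont and 78.6% ± 3.30 in Dox (SD, n = 3) of the summed FPKM of these chains.

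COL7A1 (chromosome 3, 48564073 to 48595267), which encodes the anchoring fibril collagen of skin, was at 81.7, 94.6 and 113 FPKM in Cont and 36.98, 32.9 and 28.4 in Dox, 2.95-fold lower (limma log2 change -1.53 with SE 0.13, adjusted p = 2.03e-06). COL28A1, a collagen with von Willebrand factor domains described in peripheral nerve, was at 0.0543, 0.0447 and 0.0621 and 3.50, 3.86 and 5.41. That was the largest ratio of means among the members, 79.3-fold (limma log2 change 2.30 with SE 0.14, adjusted p = 2.4e-07), from Cont values of 0.0621 or less.

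Fibril-associated collagens bind the surface of fibrils. Both tested chains rose, where 37.6% of all tested genes did, and COL9A2 passed the filter only through Dox. COL21A1 (chromosome 6, 56056590 to 56394094), described in vessel walls, was at 10.1, 10.3 and 7.66 FPKM in Cont and 21.5, 19.6 and 25.2 in Dox (limma log2 change 1.16 with SE 0.13, adjusted p = 1.34e-05). COL9A2, a chain of the type IX collagen on cartilage fibrils, was at 0.489, 0.669 and 0.372 and 1.58, 2.33 and 1.28 (limma log2 change 0.84 with SE 0.16, adjusted p = 0.00067), and its call ended under quantile normalization (0.38 in log2, limma adjusted p = 0.0594). Its partner COL9A3 was under the filter with overlapping groups, at 0.97496, 1.57 and 0.181 and 0.689, 2.16 and 0.339.

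The tested membrane collagen and multiplexin fell. COL13A1 (chromosome 10, 69801867 to 69964275), a transmembrane collagen of cell adhesions and the neuromuscular junction, was at 37.4, 37.2 and 38.2 FPKM in Cont and 1.39, 1.37 and 1.65 in Dox. This 25.6-fold fall was the largest of the tested members in log2 (limma log2 change -3.97 with SE 0.083, adjusted p = 6.71e-10), and the 3 values of each group lay close together. COL18A1 (chromosome 21, 45405137 to 45513720), the precursor of endostatin, was at 111, 112 and 82.5 and 59.5, 62.3 and 51.1 (limma log2 change -0.80 with SE 0.12, adjusted p = 0.00018). Of its exonic bases 16.4% lie under exons of SLC19A1 on the other strand, and no source used here says whether counting used strand. In all, 7 members had over 5% of their exonic bases so overlapped. They were COL18A1, P4HA2, PCOLCE, PLOD3 (7.56%), SPARC (7.89%), LOXL1 (9.21%) and LOXL3 (19.3%). COL17A1, the hemidesmosome collagen, was under the filter at 0.248, 0.298 and 0.306 and 0.174, 0.0797 and 0.0537.

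**Figure D3:**
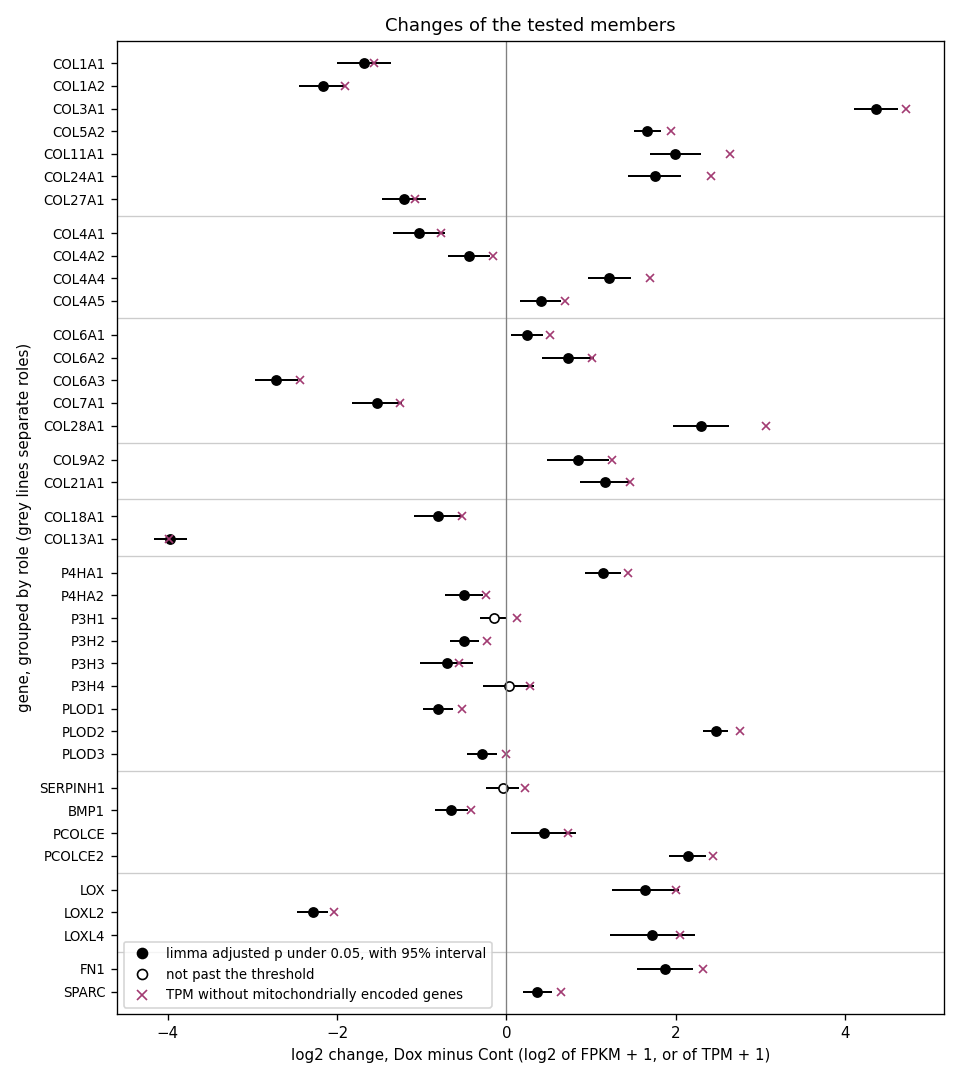
Log2 change (Dox minus Cont) of the 38 tested members, grouped by role, with the 95% interval from limma as bars. Filled circles passed an adjusted p of 0.05, open circles did not, and crosses give the change in TPM without mitochondrially encoded genes. COL3A1 has the largest rise and COL13A1 the largest fall, and for P3H1, PLOD3 and SERPINH1 the cross lies near 0 or on the other side of it.

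Among the hydroxylases, PLOD2 and P4HA1 rose, 5 others fell, and P3H1 and P3H4 did not pass the test. PLOD2 (chromosome 3, 146069440 to 146163653) encodes the lysyl hydroxylase that acts on the telopeptides, where it allows the stable type of cross-link. It was at 47.4, 49.3 and 50.3 FPKM in Cont and 283, 265 and 280.0 in Dox, a 5.64-fold rise with no overlap (limma log2 change 2.47 with SE 0.062, adjusted p = 1.52e-09). PLOD1 (chromosome 1, 11934205 to 11975538), which acts on lysines of the helix, was at 198, 201 and 180.3 and 104, 109 and 118 (limma log2 change -0.80 with SE 0.074, adjusted p = 3.95e-06). PLOD3, which also adds sugars to hydroxylysine, was at 106, 103 and 111 and 85.3, 82.01 and 94.99 (limma log2 change -0.28 with SE 0.073, adjusted p = 0.00486). The PLOD3 call ended in TPM (limma adjusted p = 0.0643), in nuclear TPM (log2 change -0.0075, limma adjusted p = 0.931) and under quantile normalization (limma adjusted p = 0.627). PLOD2 took 14.1% ± 0.633 in Cont and 58.3% ± 1.56 in Dox (SD, n = 3) of the summed FPKM of these enzymes, and PLOD1 55.4% ± 2.21 in Cont and 23.3% ± 1.08 in Dox (SD, n = 3), so their order was exchanged.

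Prolyl 4-hydroxylase makes the hydroxyproline that stabilises the triple helix, and its catalytic subunits moved apart. P4HA1 (chromosome 10, 73007217 to 73096974) was at 19.2, 22.8 and 20.02 FPKM in Cont and 50.4, 47.3 and 42.9 in Dox, a 2.27-fold rise (limma log2 change 1.14 with SE 0.088, adjusted p = 1.17e-06). P4HA2 (chromosome 5, 132191838 to 132295315) was at 17.8, 16.2 and 18.6 and 12.05, 10.9 and 13.4 (limma log2 change -0.50 with SE 0.094, adjusted p = 0.000704), and its fall missed the threshold in nuclear TPM (log2 change -0.24, limma adjusted p = 0.0516). Of its exonic bases 6.45% lie under the antisense gene P4HA2-AS1.

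Prolyl 3-hydroxylases modify single prolines, P3H1 in fibrillar and P3H2 mainly in basement membrane collagens. P3H1 (chromosome 1, 42746335 to 42767084) was at 26.97, 28.01 and 27.1 FPKM in Cont and 24.1, 25.01 and 24.7 in Dox. The groups did not overlap, but the difference missed the threshold (limma log2 change -0.15 with SE 0.065, adjusted p = 0.059) and its sign turned in nuclear TPM (0.12, limma adjusted p = 0.105). P3H2 fell from 63.3, 60.6 and 54.8 to 41.8, 41.8 and 41.8 (limma log2 change -0.50, adjusted p = 0.000106), and P3H3 from 4.33, 4.15 and 4.68 to 2.09, 1.88 and 3.03 (limma log2 change -0.71, adjusted p = 0.000738). P3H4, a family member without known enzyme activity, was at 6.001, 6.30 and 4.65 and 5.45, 6.72 and 5.13, with overlapping groups (limma adjusted p = 0.853).

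SERPINH1 (chromosome 11, 75562056 to 75572783), the gene of HSP47, was at 9.64, 9.54 and 8.92 FPKM in Cont and 8.51, 9.51 and 9.17 in Dox, with overlapping groups. Its log2 change was -0.044 (95% interval -0.23 to 0.14, limma adjusted p = 0.63), and 0.22 in nuclear TPM (limma adjusted p = 0.0391), the same as the median of all genes on that scale.

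BMP1, the proteinase that removes the C-terminal propeptides, was at 12.5, 12.8 and 12.97 FPKM in Cont and 7.47, 8.41 and 7.44 in Dox, 1.64-fold lower with no overlap (limma log2 change -0.65 with SE 0.081, adjusted p = 4.05e-05). PCOLCE2 (chromosome 3, 142815922 to 142889206), 1 of the enhancers of that cleavage, was at 18.8, 17.8 and 15.1 and 79.7, 83.5 and 74.1, a 4.59-fold rise (limma log2 change 2.14 with SE 0.091, adjusted p = 2.05e-08). The proteinase and this enhancer thus moved in opposite directions. PCOLCE, the other enhancer, was at 1.69, 2.56 and 3.47 and 3.55, 3.74 and 3.95 (limma log2 change 0.44 with SE 0.17, adjusted p = 0.033), and Cont replicate 3 nearly reached the Dox libraries. That call ended under quantile normalization (limma adjusted p = 0.167) and without any 1 library other than Cont replicate 3 (limma adjusted p = 0.0507 to 0.12), and 16.6% of the gene's exonic bases lie under PCOLCE-AS1.

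Lysyl oxidases oxidise lysines at the start of cross-linking. LOXL2, the most abundant of them in Cont, was at 131, 131 and 118 FPKM in Cont and 23.3, 25.9 and 26.2 in Dox, 5.04-fold lower (limma log2 change -2.29 with SE 0.075, adjusted p = 4.53e-09). LOX (chromosome 5, 122063195 to 122078360) was at 2.34, 2.82 and 3.95 and 9.96, 10.2 and 14.5 (limma log2 change 1.64 with SE 0.17, adjusted p = 1.07e-05), and LOXL4 (chromosome 10, 98247690 to 98268250) at 6.51, 7.47 and 4.17 and 25.5, 25.9 and 15.5 (limma log2 change 1.72 with SE 0.22, adjusted p = 4.38e-05). Both rose, with replicate 3 as the highest Dox library for LOX and the lowest for LOXL4. LOXL2 took 92.996% ± 0.492 in Cont and 42.4% ± 3.49 in Dox (SD, n = 3) of the summed FPKM of the 5 genes, LOXL4 4.40% ± 1.01 in Cont and 37.4% ± 8.70 in Dox (SD, n = 3) and LOX 2.26% ± 0.761 in Cont and 19.7% ± 5.24 in Dox (SD, n = 3). LOXL1 and LOXL3 were under the filter, at 0.273 FPKM or less and at 0.378 or less in every library.

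Of the other matrix genes, FN1 (chromosome 2, 215360440 to 215436172), the gene of fibronectin, on which collagen fibrils are laid down, was at 1.08, 1.10 and 1.92 FPKM in Cont and 8.17, 7.27 and 7.31 in Dox, a 5.56-fold rise (limma log2 change 1.88 with SE 0.14, adjusted p = 9.56e-07). SPARC (chromosome 5, 151661096 to 151687165), a collagen-binding glycoprotein, was at 102, 104 and 90.6 and 127, 123 and 132 (limma log2 change 0.37 with SE 0.072, adjusted p = 0.000995). FBN1, the gene of fibrillin 1 in microfibrils, was under the filter at 0.181, 0.166 and 0.117 and 0.953, 1.18 and 0.939, with every Dox library above every Cont library. In nuclear TPM FBN1 passed the filter only through Dox, and rose (log2 change 1.26, limma adjusted p = 2.71e-05).

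In the ratio of 2 partner genes a factor common to all genes of a library cancels. Of 9 pairs, 7 had both genes tested, and 3 libraries against 3 cannot give an exact two-sided permutation p under 0.10. The ratio of COL1A1 to COL1A2 was 0.0534, 0.0524 and 0.0571 in Cont and 0.0648, 0.0547 and 0.0648 in Dox, so the groups overlapped while both genes fell (log2 difference 0.18, exact permutation p = 0.2, adjusted over the 7 pairs 0.2). With a pseudocount of 1 added to each gene the log2 difference was 0.48 (exact permutation p = 0.1), and without Dox replicate 2 it was 0.26 (exact permutation p = 0.1). That is the smallest p either comparison allows, and in both the groups no longer overlapped. In the other 6 pairs the groups did not overlap (exact permutation p = 0.1, adjusted over the pairs 0.117). The ratio of COL4A1 to COL4A2 was 0.0458, 0.0463 and 0.0420 in Cont and 0.0284, 0.0249 and 0.0342 in Dox, 1.54-fold lower. These chains share 1 trimer, yet COL4A2 was more than an order of magnitude above COL4A1 per length in every library.

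In type VI collagen the ratio of COL6A1 to COL6A2 was 1.09, 1.19 and 1.27 in Cont and 0.794, 0.693 and 1.01 in Dox. The ratio of COL6A3 to COL6A1 was 58.8, 59.8 and 79.4 in Cont and 7.25, 8.25 and 9.28 in Dox, 7.95-fold lower, so COL6A3 came closer to its partners without reaching them. The enzyme pairs shifted too. The ratio of P4HA2 to P4HA1 was 0.923, 0.710 and 0.931 in Cont and 0.239, 0.231 and 0.313 in Dox. The ratio of PLOD2 to PLOD1 was 0.239, 0.245 and 0.279 in Cont and 2.72, 2.43 and 2.38 in Dox, 9.89-fold higher. The ratio of LOXL2 to LOX was 55.8, 46.5 and 29.8 in Cont and 2.34, 2.52 and 1.80 in Dox, 19.4-fold lower and the widest shift of the 7 pairs.

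**Figure D4:**
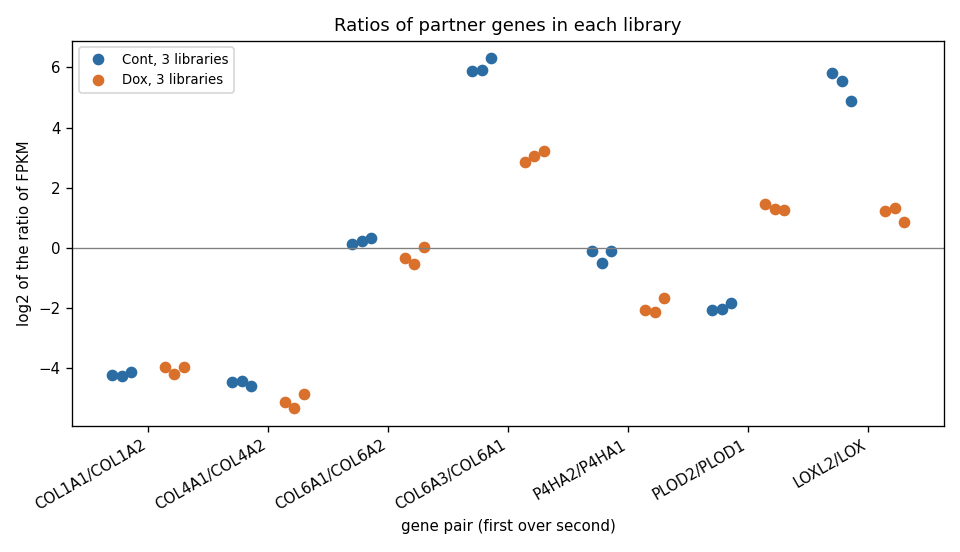
Log2 of the ratio of FPKM of 7 pairs of partner genes in each library, Cont in blue and Dox in orange, with replicates 1 to 3 from left to right. The groups overlap for COL1A1 over COL1A2 and are apart for the other 6 pairs, and for PLOD2 over PLOD1 they lie on opposite sides of 0.

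The 13 members under the filter stayed at FPKM 1.57 or less in Cont and 2.16 or less in Dox, with COL9A3 the highest. Of these, 8 had groups that did not overlap, against 64.7% of all genes under the filter. In 5 of them (COL2A1, COL4A3, COL10A1, COL20A1 and FBN1) all Dox libraries were above all Cont libraries, in 3 (COL8A1, COL17A1 and LOXL1) all were below, and in 5 (COL5A1, COL4A6, COL8A2, COL9A3 and LOXL3) the groups overlapped. Among all 1591 genes under the filter, 54.0% were apart with Dox higher and 10.7% with Dox lower. COL2A1 was at 0.0249, 0.0205 and 0.0168 FPKM in Cont and 0.0823, 0.182 and 0.137 in Dox, COL20A1 at 0.0471, 0.0133 and 0.0700 and 0.324, 0.142 and 0.136, and COL8A1 at 0.280, 0.270 and 0.119 and 0.0904, 0.0591 and 0.0188.

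Genes that serve procollagen but are not members were taken from 5 lists, whose counts stand against 37.6% higher and 42.8% lower over all tested genes. Their counts in nuclear TPM stand against 5837 higher and 3855 lower of the 12078 genes tested on that scale. Of 20 genes of procollagen folding and export, all tested, 6 rose and 10 fell (median log2 change -0.22, against -0.06 over all tested genes), or 9 and 6 in nuclear TPM. COLGALT1, which adds galactose to hydroxylysine, fell from 67.96, 68.2 and 64.1 FPKM to 18.2, 19.7 and 22.8 (limma log2 change -1.68, adjusted p = 6.88e-08), and the prolyl isomerase gene FKBP14 from 13.2, 13.7 and 14.3 to 3.24, 3.81 and 4.39 (limma log2 change -1.62, adjusted p = 2.92e-07). SEC23A, a coat protein of the vesicles that leave the endoplasmic reticulum, rose from 51.2, 52.5 and 50.3 to 132, 134 and 149.5 (limma log2 change 1.41, adjusted p = 5.19e-08), and MIA2, which loads large cargo there, from 42.9, 42.4 and 43.4 to 122, 116 and 95.9 (limma log2 change 1.35, adjusted p = 4.17e-07). P4HB, the partner subunit of P4HA1 and P4HA2, was at 437, 435 and 424 and 331, 337 and 385. Its fall (limma log2 change -0.30, adjusted p = 0.00382) was lost in nuclear TPM (-0.023, limma adjusted p = 0.764). P4HB was named after its values were seen.

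Of 10 collagen receptor and uptake genes, 5 were tested, of which 2 rose and 2 fell (median log2 change -0.28, against -0.06 over all tested genes), or 3 and 1 in nuclear TPM. The 3 include DDR2, which missed the filter in FPKM (log2 change 0.71 in nuclear TPM, limma adjusted p = 0.00162). In nuclear TPM DDR2 passed the filter only through Dox. ITGB1, the integrin beta 1 gene, fell from 952, 970.1 and 826 FPKM to 457, 462 and 488 (limma log2 change -0.96, adjusted p = 1.92e-06), while its collagen-binding alpha partners ITGA1 and ITGA2 rose by 0.77 and 0.59 in log2. ITGA10, another alpha chain of the list, did not pass the test and had overlapping groups (limma log2 change -0.28, adjusted p = 0.115). The uptake receptor gene MRC2 fell (limma log2 change -0.35, adjusted p = 0.014), a call lost in nuclear TPM (limma adjusted p = 0.457). Of 16 elastic fibre and microfibril genes, 8 were tested, of which 6 rose and 1 fell (median log2 change 0.53, against -0.06 over all tested genes), or 8 and 1 in nuclear TPM. The rises in nuclear TPM include EMILIN1 (log2 change 0.76, limma adjusted p = 0.000891). That gene missed the filter in FPKM, at under 1 in every library, and in nuclear TPM passed it only through Dox. Of the tested genes, LTBP1 was under FPKM 1 in all Cont libraries and passed the filter only through Dox. EFEMP2, which binds lysyl oxidase and elastin, was at 0.621, 0.280 and 1.57 in Cont and 12.6, 13.9 and 12.4 in Dox (limma log2 change 2.995, adjusted p = 6.55e-07), and FBLN5 at 2.14, 1.42 and 2.52 and 13.2, 11.4 and 15.1 (limma log2 change 2.24, adjusted p = 4.24e-07). LTBP1, a latent TGF-beta binding protein gene, rose (limma log2 change 1.07, adjusted p = 1.52e-05) and LTBP2 fell (limma log2 change -0.65, adjusted p = 3.31e-05). Of the small leucine-rich proteoglycans only BGN, which binds fibrils, was tested, and it fell from 10.3, 9.22 and 10.1 to 4.23, 3.97 and 5.15 (limma log2 change -1.002, adjusted p = 9.7e-06). ADAMTS3, a procollagen N-proteinase gene and the only 1 of its list in the table, was at 1.36, 1.35 and 1.78 and 1.74, 1.82 and 1.99 (limma adjusted p = 0.139), and was called higher in nuclear TPM (log2 change 0.44, limma adjusted p = 0.0153).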

How the data were processed

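The deposited table holds log2 FPKM of 13117 genes in 6 poly(A) RNA-seq libraries, made by the authors with a small offset before the logarithm. FastQC 0.11.7 and the build GRCh38 are named per the submitters' processing notes, and the aligner, counter and annotation are not given in the sources used here. The first Cont sample's description names the column of the second, so columns were matched by title. The logarithm was undone to give FPKM. The test was limma 3.58.1 (R 4.3.3), applied to log2(FPKM + 1) of the 11526 genes in which 3 or more libraries reached FPKM 1, with eBayes moderation along the intensity trend. Two-sided p-values were adjusted over these genes by the Benjamini-Hochberg method. The design had been written for linear FPKM. The fit was tested on simulated data. Relative depth came from 307 genes whose lowest value was shared by at least 2 libraries, with all values within 0.05 of whole reads. Coordinates are those of GENCODE 29 (GRCh38), in which all 51 members matched 1 gene, and promoter windows those of RefSeq (GRCh38.p14). Members, lists and tests were chosen with earlier results of these data known. By the rule for named genes every member could be named, with all libraries' values for a preset group and the 3 largest called changes of each role, and up to 4 called genes of each other list. Values of further members were added.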

Additional observations from a re-analysis of the deposited data

How the results depend on the processing

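The tested members were refitted with pseudocounts of 0.1 and 0.01, the deposited log2 values, no filter, a filter at FPKM 5, TPM, nuclear TPM (without the mitochondrially encoded genes), quantile and median-of-ratios scaling, robust moderation, moderation without the trend, a block for replicate number, and 1 library left out at a time. Of the 35 members called, 29 kept direction and call in every such setting that tested them, and 6 (COL4A2, COL6A1, COL9A2, P4HA2, PLOD3 and PCOLCE) did not. The 29 include COL4A4, COL11A1, COL24A1 and COL28A1, which went untested at FPKM 5 and without any 1 Dox library. P3H3, also among the 29, went untested at FPKM 5. Without 1 library, 12 to 19 members rose and 16 fell, and the lowest count is that without Dox replicate 1. Signs turned for COL4A2 under quantile normalization (0.018 in log2), for P3H1 in nuclear TPM (0.12), for P3H4 under quantile normalization (-0.035) and without Cont replicate 3 or Dox replicate 2 (-0.086 and -0.072, range over all libraries -0.086 to 0.098), and for SERPINH1 in TPM (0.062), in nuclear TPM (0.22) and with median-of-ratios scaling (0.022). The cause was not tested. With the replicate number as a block, 19 members rose and 16 fell, and no member's call changed. Same-numbered libraries correlated by 0.037, -0.0048 and 0.079 in their deviations from the group means, so the numbers were not taken to pair them. The ratios of partner genes kept their direction under a pseudocount of 1, within replicate numbers and without each library, though that of COL1A1 to COL1A2 moved from 0.18 to 0.48 with the pseudocount, and ranged from 0.13 to 0.26 without 1 library. Total depth is unknown, so the precision of the 13 members under the filter rests on the spread of 3 libraries.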
